A study of Danio rerio with 20 samples.

Results

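The set described here held 30 of the 43603 probes of a zebrafish expression array, selected on measured values for a low intensity in the adult brain of *rnaset2* mutants. A probe was kept where the mean log2 intensity of mutant brains was at least 2.5 below that of wild type (WT) sibling brains. Every mutant brain array also had to lie below every WT brain array, and the WT brain mean had to reach an intensity of 100. In embryos 28 hr (hpf) and 3 days (dpf) after fertilization the genotypes had to differ by less than 1 on the log2 scale. The adult fall and the small embryonic differences were therefore chosen by the rule, and their values are given as a description without a test.

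The fish carried the *rnaset2* AO127 allele, a chemically induced (ENU) mutant line, and were compared with WT siblings. RNA came from whole pooled embryos freed of the chorion at 28 hpf (4 mutant and 4 WT samples) and 3 dpf (3 and 3), and from dissected whole brains of adults 1 year old (3 and 3). One label field gives the youngest stage in dpf, and the hpf of the study's methods was used. Samples 1 and 1.1 occur in both genotypes at 28 hpf, and whether these are separate pools is not stated, nor is the division of any samples between clutches or animals. P-values therefore measure the spread between these samples, which may be technical.

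RNaseT2 is a ribonuclease of the lysosome, the compartment in which cells break down RNA and other large molecules that they take up or recycle. In humans, loss of RNASET2 causes a leukoencephalopathy, a disease of the white matter with onset in infancy. Microglia, the phagocytes of the brain, depend on lysosomes to digest the dying cells that they engulf. No table used here gave the gene of a probe, so the lists of cell type, immune, myelin, lysosomal and other genes could not be applied and the brain label could not be checked against its markers. Members are called by their rank, with rank 1 for the largest fall, and the probes of ranks 1 and 2 are A_15_P700816 and A_15_P620786. A lower intensity in a whole brain cannot separate fewer cells of a type from less RNA per cell.

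Intensities on the 20 arrays were quantile normalized by the authors and lay between 2.14 and 589725, with a median of 257.7. One value in 20 lies below 3.13 and 1 in 10 below 8.52, and no background reading was used here to tell which dim values lie above background. Of the 43603 probes, 251 met the fall, 210 of these also had separate groups, and 130 of these also reached the WT brain mean. The embryonic bound removed 100 of the 130. Of those 100, 34 were lower in mutants by at least 1 at both embryonic stages, 42 at 3 dpf only, 9 at 28 hpf only, and 15 were higher in mutants by that much at one or both stages.

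The 30 members differed between mutant and WT brains by -7.75 to -2.56 on the log2 scale, with a median of -3.09. Their WT brain means ran from 101 to 11369 with a median of 474, and their mutant brain means from 3.22 to 1345 with a median of 56.1. Only 5 members fell by at least 4 on the log2 scale. The members just inside the threshold had differences of -2.56, -2.57 and -2.58, and the nearest probes outside that met every other criterion had -2.48, -2.44 and -2.43. In limma all 30 were called lower at an adjusted p under 0.05, against 17.8% of all probes called lower, and nothing is read from this count because the rule used the contrast.

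A_15_P700816 measured 908, 453 and 797 in WT brains 1, 2 and 3. In mutant brains 1, 2 and 3 it measured 2.91, 3.80 and 2.94. The means were 719 ± 237 (SD, n = 3) and 3.22 ± 0.504 (SD, n = 3), a difference of -7.75 on the log2 scale. It was the only member with every mutant brain array under 10, at the bottom of the scale, so the size of its fold depends on where the floor of the array lies. On log2 of the intensity plus 50 the difference was -3.80.

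In whole embryos at 28 hpf A_15_P700816 was as dim as in mutant brains, at 2.83, 3.90, 7.50 and 2.93 in WT samples 1, 1.1, 2 and 3 and at 6.36, 5.68, 3.83 and 5.04 in mutant samples 1, 1.1, 2 and 3. At 3 dpf it measured 33.8, 23.6 and 19.1 in WT siblings and 21.5, 18.5 and 22.4 in mutants. The 3 dpf arrays of both genotypes thus lay above all of the 28 hpf arrays, with the genotypes overlapping, and all embryo arrays lay far below the WT brains.

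A_15_P620786 measured 2217, 4820.0 and 5748 in WT brains and 58.3, 65.3 and 81.2 in mutant brains. Its difference of -5.87 changed less, to -5.08, on log2 of the intensity plus 50, and was the largest fall of the set on that scale. In embryos it stayed between 80.9 and 138 on all 14 arrays. Mutant brains 1 and 2 lay below all of these and mutant brain 3 at their lower end, and every WT brain lay above them.

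The members of ranks 3 and 4 followed. Rank 3 measured 268, 516 and 618 in WT brains and 10.1, 7.71 and 11.4 in mutant brains, with embryo arrays from 85.6 to 306. Rank 4 measured 1124, 533 and 1066 in WT brains and 45.9, 34.3 and 26.4 in mutant brains, with embryo arrays from 72.7 to 111. Rank 4 was the only member with all WT brains above and all mutant brains below the 14 embryo arrays. This position was held by 17 of the 28077 probes with a WT brain mean of at least 100. It was also held by 7 of the 100 probes that only the embryonic bound left out. A rule that sets mutant brains below WT brains favours it. At rank 3 the lowest WT brain lay inside the embryo range.

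**Figure D1:**
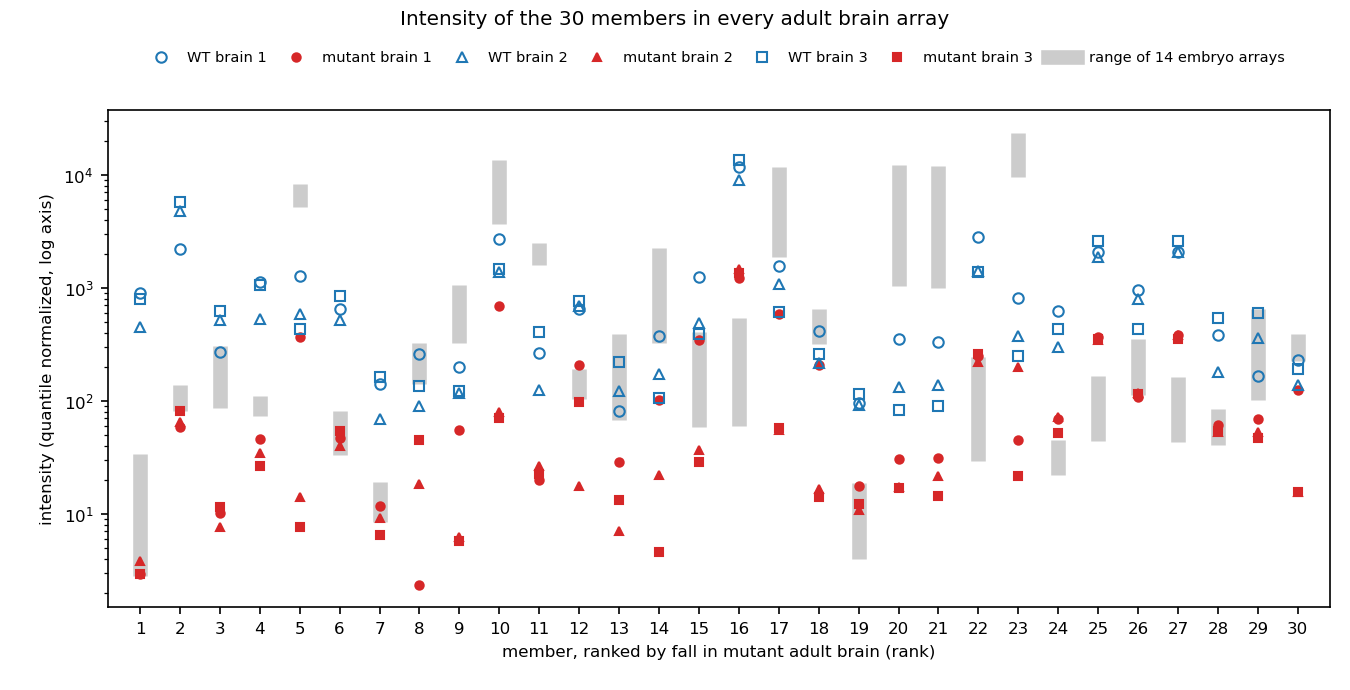
Intensity (quantile normalized, log axis) of each of the 30 members, ordered by rank of fall, in the 3 WT brains (open blue) and 3 mutant brains (filled red), with a marker shape for each replicate number. Grey bars span the lowest to the highest of the 14 embryo arrays. Mutant brain 1 (red circles) stands over 4-fold above the mean log2 level of mutant brains 2 and 3 in 9 members. It stands over 4-fold above each of them in 8, such as rank 5 at 369 against 14.0 and 7.71.

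The level of WT embryos, which the rule did not fix, split the members. In 16 of 30 (53.3%) the WT mean was lower at both embryonic stages than in WT brain, against 55.6% of the 28077 probes with a WT brain mean of at least 100 (the brighter probes). In 12 (40%, against 33.8%) it was higher at both stages, and in the other 2 (6.67%, against 10.6%), ranks 13 and 29, it was lower at 3 dpf and higher at 28 hpf. The shares were near those of all such probes.

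Among the 16 members brighter in WT brain than in WT embryos, all WT brain arrays exceeded all 14 embryo arrays in 14. The mutant brain arrays overlapped the embryo range in 10 of the 16, lay wholly below it in 2 (ranks 3 and 4) and wholly above it in 4 (ranks 16, 24, 25 and 27). As shares of all 30 members, WT brains lay wholly above the embryos in 46.7% (against 43.8% of the 28077 brighter probes) and mutant brains in 13.3% (against 43.4%). Only the WT share is near that of the brighter probes, and the mutant brains were selected to be low. The brightest was rank 16, at 11599.8, 8986 and 13521 in WT brains and 1219, 1476 and 1339 in mutant brains. Its embryo arrays ran from 404 to 537 at 3 dpf and from 59.9 to 76.0 at 28 hpf. The fall at rank 16 thus left mutant brains above every embryo array, and it was nearly the same on log2 of the intensity plus 50 (-3.06 and -3.02).

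Ranks 25 and 27 had almost the same profile. Rank 25 measured 2061, 1887 and 2569 in WT brains and 365, 342 and 354 in mutant brains, and rank 27 measured 2079, 2079 and 2609 in WT brains and 386, 384 and 354 in mutant brains. Over the 20 arrays they differed by at most 0.31 on the log2 scale (Pearson r = 0.998 across arrays of 3 stages). They were among the members with the tightest mutant brain replicates, while their falls, -2.61 and -2.58, were among the smallest of the set.

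The 12 members that were brighter in WT embryos had a median WT mean of 4070.0 at 3 dpf and 1533 at 28 hpf, against 242 in WT brain and 47.4 in mutant brain. WT embryos exceeded WT brain by 0.65 to 5.57 on the log2 scale, averaged over both stages. In all 12 every mutant brain array lay below every embryo array, and in 8 of them every WT brain array did so too. Over all 30 members the mutant brains lay wholly below the embryos in 16 (53.3%, against 23.3% of the 28077 brighter probes), a direction that selection for low mutant brains favours. The WT brains did so in 8 (26.7%, against 22.1%), a share near that of the brighter probes.

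Rank 23 had the brightest embryos, from 9461 to 23423 on the 14 arrays, with 815, 377 and 249.7 in WT brains and 45.1, 201 and 21.8 in mutant brains. Rank 20 measured 354, 133 and 82.6 in WT brains and 30.9, 17.2 and 16.9 in mutant brains, with 10155 to 12123 at 3 dpf and 1042 to 1685 at 28 hpf. Rank 21 followed rank 20 to within 0.31 on the log2 scale on every array (r = 0.999). At rank 23 the highest mutant brain came close to the lowest WT brain, with 0.31 between them on the log2 scale, and at ranks 20 and 21 the gap was 1.42 and 1.52. It was narrower than at rank 23 at ranks 5, 14, 15, 17, 18 and 30, from 0.06 (rank 17) to 0.22 (rank 5). In these the highest mutant brain was mutant brain 1.

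**Figure D2:**
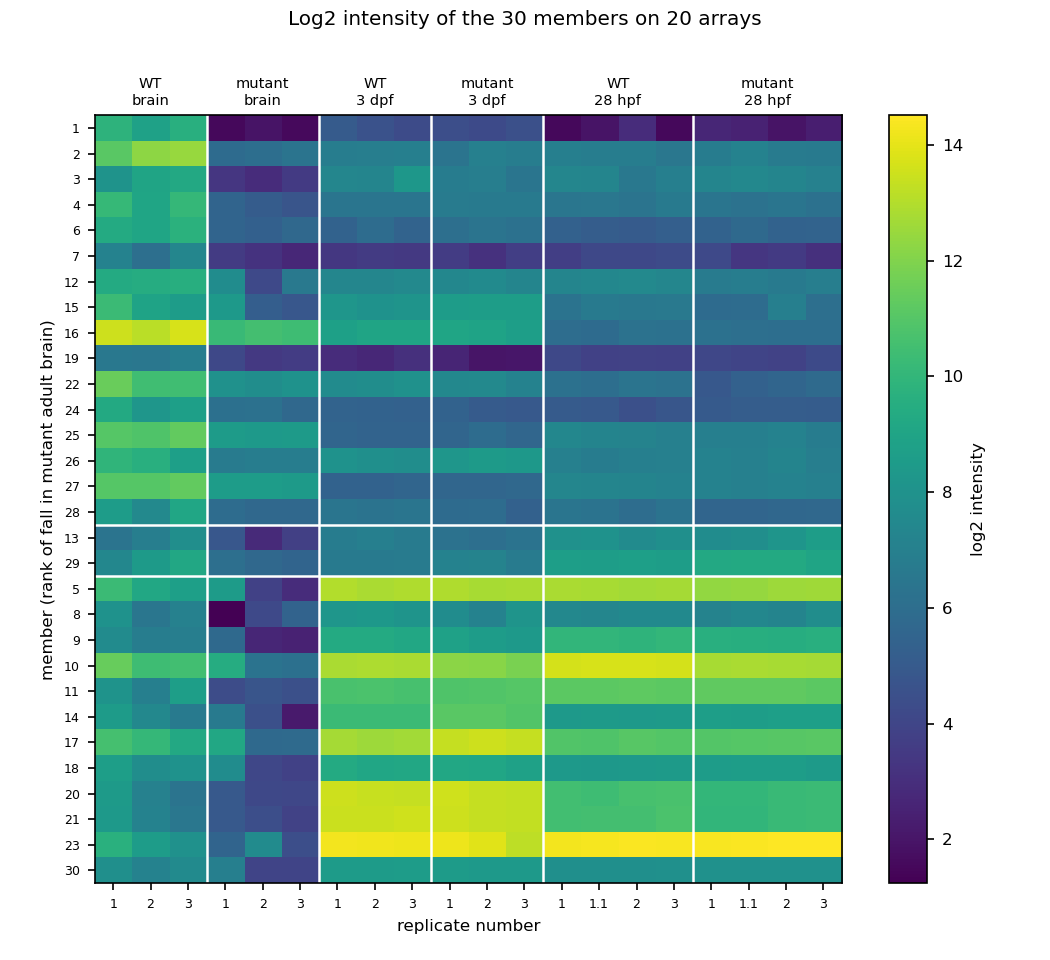
Log2 intensity (colour) of the 30 members (rows, by rank) on the 20 arrays (columns, by group and replicate number). White lines part the 16 members dimmer in WT embryos than in WT brain (top), the 2 with one stage each way (middle) and the 12 brighter in WT embryos (bottom).

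The members' median SD of log2 intensity was 0.62 among WT brains and 0.41 among mutant brains, against 0.13 and 0.11 for the 28077 probes with a WT brain mean of at least 100 and 0.51 and 0.39 for the 100 probes that only the embryonic bound left out. The wide spread among brains was thus shared with those 100 probes. The brighter probes were set by their WT brain level only. Their median mutant brain mean was 911, against 56.1 for the members and 33.0 for the 100 probes, so among mutant brains dim probes were compared with bright ones. In embryos the members' median SD was 0.07 (WT, 3 dpf), 0.18 (mutants, 3 dpf), 0.13 (WT, 28 hpf) and 0.12 (mutants, 28 hpf), against 0.08, 0.10, 0.08 and 0.08 for the brighter probes. WT brain 1 was the highest WT brain in 17 members (56.7%, against 31.8% of the brighter probes) and WT brain 3 in 13 (43.3%, against 36.1%). WT brain 2 was the highest in 0 of 30, against 32.2% of the brighter probes and 18% of the 100 that only the embryonic bound left out.

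Mutant brain 1 stood apart in part of the set, a pattern chosen after its values were seen. In 9 of the 30 members (30%) it lay over 4-fold above the mean log2 level of mutant brains 2 and 3, against 66 of 28077 probes (0.235%) and 10 of the 100 probes that only the embryonic bound left out. These members were ranks 5, 9, 10, 12, 14, 15, 17, 18 and 30, and 7 of them were brighter in WT embryos than in WT brain. In 8 of them it lay over 4-fold above each of the 2 brains, but not at rank 12 (209.5 against 17.7 and 97.1). Ranks 9 and 10, ranks 18 and 30 and ranks 14 and 17 had profiles alike over the 20 arrays, least so ranks 14 and 17 (r = 0.983). The 9 members thus need not stand for 9 genes. The excess in mutant brain 1 ran from 5.05-fold to 35.5-fold, with a median of 10.1-fold. The part of this brain in the members' values was not tested. A mutant brain array under 20 occurred in 50% of the members and 49% of those 100 probes, against 0.541% of the 28077, which were thus seldom as dim.

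Rank 5 had the widest spread, at 1269, 581 and 429 in WT brains and 369, 14.0 and 7.71 in mutant brains 1, 2 and 3. Its embryo arrays ran from 5223 to 8209.9. Rank 10 measured 2717, 1366 and 1456 in WT brains and 693, 79.8 and 70.7 in mutant brains. In both, mutant brain 1 lay between the WT brains and mutant brains 2 and 3, which were far below.

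In 8 of the 9 members WT brain 1 was also the highest WT brain, rank 12 being the exception, as it was in 49 of the 66 brighter probes with the same excess in mutant brain 1, the 9 included. Without mutant brain 1 their difference from WT was -6.04 to -3.55. The other 21 members had a median SD of 0.26 among mutant brains and a difference of -7.69 to -2.35 without mutant brain 1. Rank 8 was the reverse case, at 2.37, 18.3 and 44.7 in mutant brains, the only member with mutant brain 1 over 4-fold below the others.

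**Figure D3:**
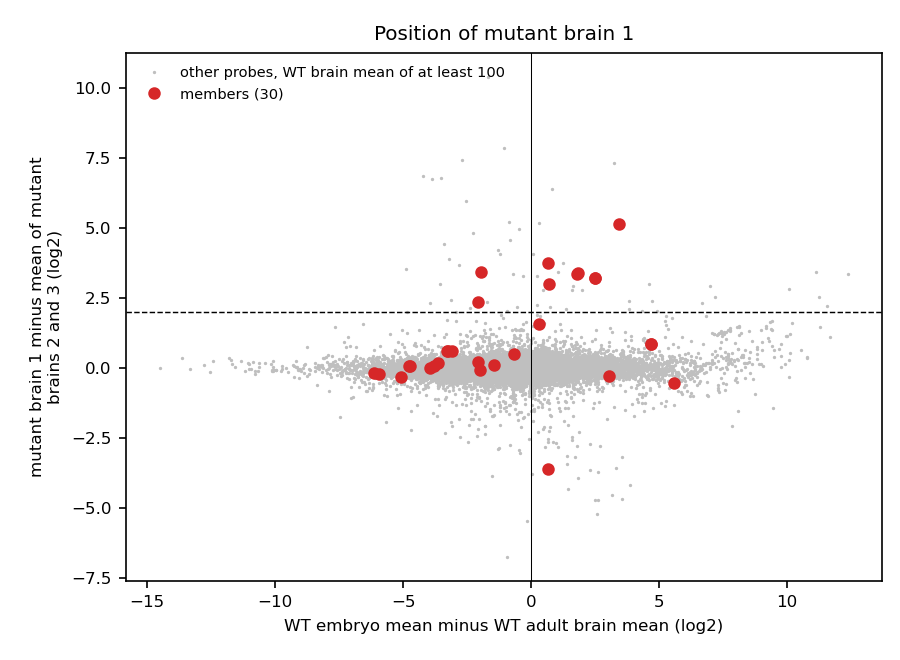
Log2 distance of mutant brain 1 from the mean of mutant brains 2 and 3 (vertical) against the log2 difference between WT embryos and WT brain (horizontal), for the 30 members (red) and all other probes with a WT brain mean of at least 100 (grey). The dashed line marks 4-fold, and 9 members lie above it, 7 of them to the right of 0, some on top of each other.

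When the 6 adult arrays were fitted alone, 19 of 30 members were called lower at an adjusted p under 0.05, against 7.60% of all probes. The 19 were all among the 21 members without the excess in mutant brain 1, and 0 of the 9 with it were called. The rule used this contrast too, and the 9 were picked for their spread among mutant brains, so nothing is read from these counts. In the fit of all arrays the adult spread is pooled with the narrower spread of embryos.

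The change from 28 hpf to 3 dpf was not used by the rule and was tested in each genotype with limma. The fit held all arrays, so its standard errors include the spread among brains, wider in the members than in the brighter probes. In WT siblings 16 of 30 members differed, against 60.7% of all probes. Of these, 11 were higher at 3 dpf (36.7%, against 26.8% of all probes) and 5 were lower (16.7%, against 33.9%). The number lower depended on the arrays fitted, as given below. Of the 12 members brighter in WT embryos, 4 rose (ranks 14, 17, 20 and 21) and 0 fell, also 0 at an unadjusted p under 0.05 but 3 in a limma fit of the WT embryo arrays alone. Of the 16 dimmer in WT embryos, 7 rose (ranks 1, 6, 15, 16, 22, 24 and 26) and 3 fell (ranks 19, 25 and 27). Ranks 13 and 29 fell. The shares of all probes split in this way were not counted, so nothing about the members is read from the split.

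The largest rises in WT siblings were at ranks 21 (2.90, standard error 0.31, adjusted p = 5.7e-07 from limma) and 20 (2.85, standard error 0.33, adjusted p = 1.41e-06 from limma). Rank 16 rose by 2.84 (standard error 0.13, adjusted p = 1.52e-11 from limma) and A_15_P700816 by 2.65 (standard error 0.31, adjusted p = 1.59e-06 from limma). The WT values of A_15_P700816 at 28 hpf, 2.83 to 7.50, lie near the bottom of the scale, so the size of its rise depends on the floor. The largest fall was at rank 29, -1.94 (standard error 0.28, adjusted p = 1.68e-05 from limma). A_15_P620786, with a change of 0.11 (standard error 0.25), did not pass (adjusted p = 0.737 from limma).

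In mutants 15 of 30 members differed between the stages, against 70.5% of all probes. Of these, 10 were higher at 3 dpf (against 28.5%) and 5 lower (against 42.0%). The 15 were also called in WT siblings, in the same direction, and rank 24 was called in WT siblings only. The rule ties the stage changes of the genotypes to within 2 on the log2 scale, so their likeness is no finding, and the difference at rank 24 was not tested. A_15_P700816 rose in mutants by 2.01 (standard error 0.31, adjusted p = 2.24e-05 from limma), again from values near the floor at 28 hpf.

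The number called depended on the arrays fitted. With only the embryo arrays compared in the fit, 23 of 30 members were called in WT siblings (64.8% of all probes) and 25 of 30 in mutants (73.1% of all probes). The members' share was thus above that of all probes here, and below it in the fit of all arrays. By direction, 14 members were higher at 3 dpf and 9 lower in WT siblings, and 15 higher and 10 lower in mutants. Lower members thus made up 30% (WT) and 33.3% (mutants), against 16.7% in both genotypes in the fit of all arrays. The shares of all probes by direction were not counted for the compared groups alone. The members' median standard error was 0.30 in the fit of all arrays, and 0.083 (WT) and 0.11 (mutants) with those groups alone.

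**Figure D4:**
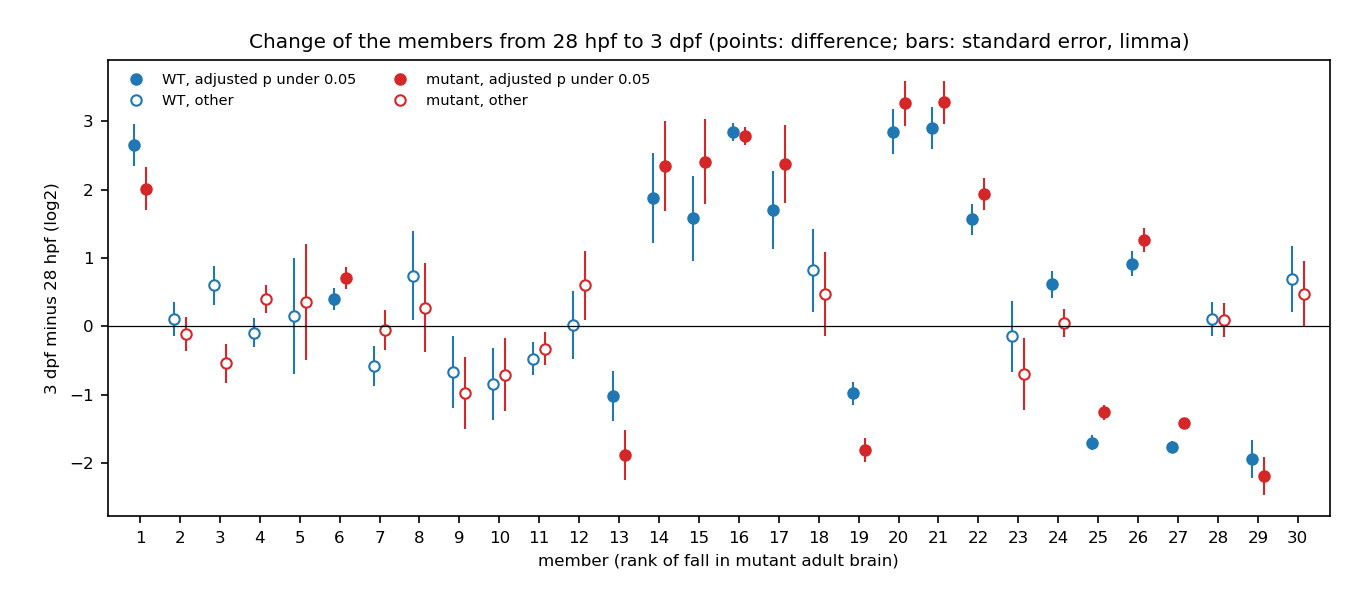
Log2 difference between 3 dpf and 28 hpf for each member, by rank, in WT siblings (blue) and mutants (red), with bars for the standard error from limma over all arrays. Filled points have an adjusted p under 0.05: 16 members in WT siblings and 15 in mutants.

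Within the embryonic bound, the members' genotype differences lay on both sides of 0. Mutant minus WT ran from -0.91 to 0.76 at 3 dpf with a median of -0.08, and from -0.92 to 0.56 at 28 hpf with a median of 0.03. In 15 members the difference stayed under 0.5 at both stages. Mutants were lower at 3 dpf in 19 members (63.3%, against 54.2% of the brighter probes). They were lower at 28 hpf in 14 (46.7%, against 45.4%) and at both stages in 9 (30%, against 28.5%), shares near those of the brighter probes. The widest were rank 3 at 3 dpf (-0.91) and rank 10 at 28 hpf (-0.92), close to the bound of 1. At rank 10 every mutant embryo array lay below every WT array of its stage (6812 to 7263 against 12865 to 13423 at 28 hpf). The same held at ranks 9, 22 and 28, and at ranks 6 and 14 every mutant embryo array lay above. The share of all probes so separated was not counted, so nothing about the members is read from this separation.

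Some members had nearly the same profile as each other over the 20 arrays, not always at the same level. Beside ranks 20 and 21 and ranks 25 and 27, ranks 18 and 30 followed one course (r = 0.996, at most 0.83 apart on the log2 scale), and ranks 9 and 10 did so at different brightness (r = 0.996). Whether such pairs share a transcript is not known here, so 30 probes need not stand for 30 genes. These correlations are across arrays of 3 stages and share every array, and are given as a description.

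By the smallest root mean square distance in log2 intensity over the 20 arrays, the nearest of all other probes was itself a member for 10 of the 30. For the other 20 the nearest probe was not a member, but was lower in mutant brains in all 20 and by at least 1 on the log2 scale in 19. For 6 of these 20 members the nearest probe met the fall and missed another criterion, and for 7 it missed the fall alone. At ranks 12 and 26 the nearest probe had the same genotype difference at each stage, so the 20 members need not have 20 separate nearest probes. On the array farthest apart, the nearest probe differed from its member by 0.73 (rank 29) to 3.04 (rank 1) on the log2 scale. Only 4 members had a nearest probe within 0.5 on every array, and that probe was a member. The distance includes the brain arrays, so nearest probes tend to be low in mutant brains too.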

How the data were processed

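Expression was measured in 20 samples (6 groups) on one-colour Agilent zebrafish 4x44K arrays. The authors deposited intensities on a linear scale after quantile normalization across arrays, and their notes name danRer11 for the annotation of probes. The scanner's software, its background correction and the slide of each array were not given in the sources used here. Slide was therefore not tested as a batch. The authors' choice of 1 probe per gene was not repeated.

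From the deposited intensities, log2 values were taken and the selection rule was applied in Python. Log2 values of all 43603 probes were given 1 mean per group (6 groups) in limma 3.58.1 under R 4.3.3, which left 14 residual and 1.79 prior degrees of freedom. Two-sided p-values were adjusted by Benjamini-Hochberg over all probes, with dim probes kept, and called under 0.05. The fit was tested on simulated data with the same SD in all groups of a probe, which does not cover the wider spread among brains. The number of arrays limits the precision. Since no table pairs the probes with genes, the 2 members with the lowest difference are named by probe and the others by rank. The members, lists and tests were chosen with earlier results of these data known. Alternatives covered the thresholds of the rule, log2 of the intensity plus 50, a filter on dim probes, an intensity trend, fits of the compared groups alone, samples 1 and 1.1 averaged or as a block, the replicate number as a block, and leaving out each array.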

Additional observations from a re-analysis of the deposited data

Results flagged for a closer look

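Among the 60 groups of 4 samples at 28 hpf (30 members in both genotypes), 3 held 1 sample far from the others by Dixon's 95% critical value, and chance marks about 1 in 20 groups. At rank 6 the mutant sample 1.1 measured 55.1, against 42.4 to 43.7 in the other mutant samples. At rank 19 the WT sample 1 measured 17.3, against 14.2 to 14.4 in the others. At rank 21 the WT sample 3 measured 1744, against 1449 to 1473 in the others. The groups of 3 samples, adult brains included, are too small for this criterion.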

How the results depend on the processing

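The size of the set depended on its thresholds. The rule gave 56 probes with a fall of at least 2, 17 with at least 3, 15 with embryonic differences under 0.5, and 13 on log2 of the intensity plus 50, of which 9 were among the 30. Leaving out 1 array gave 28 to 47 (46 without mutant brain 2 and 47 without WT brain 3), and 13 of the 30 met the rule whichever adult array was left out. Without both brains numbered 1, an alternative chosen after seeing the data, it gave 46 with 27 of the 30 kept. In adult brain 19 of 30 were called lower with the adult arrays alone, and 30 in every fit that left out 1 array or took the replicate number as a block. The rule used this contrast, so nothing is read from these counts. From 28 hpf to 3 dpf in WT siblings, 10 of the 30 members (of the 16 called) passed an adjusted p under 0.01, against 21852 of 43603 probes. When 1 array was left out, 13 to 15 members were called, against 24323 to 25495 probes. In mutants 25 were called with those groups alone, against 73.1% of all probes. Every fit that left out 1 array called 15, against 29201 to 29970 probes. With the replicate number as a block, 14 (WT) and 15 (mutants) were called, against 26072 and 30419 probes. Deviations of same-numbered samples did not go together over all probes (r of -0.06 to 0.05), so the numbers were not taken as a pairing. Over the members alone, r between the genotypes was 0.25, -0.21 and 0.51 for adult brains 1, 2 and 3. The adult differences of A_15_P700816 and A_15_P620786 kept their sign under the alternatives run. The rule fixed that sign, since every mutant brain array had to lie below every WT brain array. Counts have no direction to reverse. Against all probes, the members' share called from 28 hpf to 3 dpf was lower in the fit of all arrays. It was higher with the compared groups alone, in both genotypes. Intensities near the floor have folds of uncertain size.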
